A study of Homo sapiens with 8 samples.

Results

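Cancer-testis genes are normally used in germ cells of the testis and are silent in most other tissues, but many tumours switch some of them on, and their proteins are then seen by T cells. Many form families of near-copies on the X chromosome, such as MAGEA, GAGE, SSX and SPANX, while others are single autosomal genes of meiosis or of the piRNA pathway, which silences transposons. DNA methylation and repressive histone marks keep them off in somatic cells, and trimethylation of lysine 9 of histone H3 (H3K9me3), written by SUV39H1 and related enzymes, is one such mark. The genes described here were those of all promoter windows whose symbol matched MAGEA, MAGEB, MAGEC, GAGE, PAGE, XAGE, SSX, SPANX, CTAG, CT45A, CT47A, PRAME, BAGE, TPTE, SYCP1, BRDT, TEX1 or TDRD at its start. There were 133 such genes of 24256, in 19 families, with 90 on chromosome X and 43 on autosomes, and each was represented by its window with the most reads. DDX43 and DDX53 were also searched for and matched no window. The pattern caught 7 genes by the spelling of their symbols (SSX2IP, CTAGE1, CTAGE4, CTAGE5, TEX10, TDRD3 and TDRD7), which are described apart or named as such. CTAGE1 among them is itself a tumour antigen gene.

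The material was the established cervical squamous carcinoma line SiHa, grown on a transwell membrane and separated after 10 h into cells that had crossed it (migrated) and cells that had not (non-migrated). Each fraction gave an H3K9me3 chromatin immunoprecipitation (ChIP) library and an input library, which is sonicated chromatin without antibody, in 2 paired replicate sets. The migrated H3K9me3 library of set 1 is numbered 1 in its title and belongs to the set 1 table, but its description numbers it 2; the title was followed, and all values by set rest on this. The 4 groups were H3K9me3 of migrated cells, input of migrated cells, H3K9me3 of non-migrated cells and input of non-migrated cells, with 2 libraries each. All cells were of 1 unmodified line. The sets were made with different library kits, and the kit did not differ between fractions. Set 1 was shallow: its promoter windows held 88028 and 164766 H3K9me3 reads in migrated and non-migrated cells, against 684949 and 388191 input reads. Set 2 held 984835 and 1137376 H3K9me3 reads against 1679874 and 1729061 input reads. The antibody separated known high from known low promoters, since 124 of 212 ZNF genes on chromosome 19 were past the threshold above input and 30 of 60 cytosolic ribosomal protein genes below it. Depth outside promoter windows is unknown.

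The first result was how many of these promoters could be measured at all. Of the 133 genes, 46 (34.6%) had no read in any of the 4 inputs, against 509 of all 24256 genes (2.1%), and 41 had no read in all 8 libraries. Only 67 of the 133 (50.4%) passed the filter on low reads, against 23165 of 24256 genes (95.5%). The loss followed the families. Of 17 GAGE genes, 10 had no input read and 1 was tested. Of 10 CT47A genes, 9 had no input read and 1 was tested. XAGE kept 2 of 9, CTAG 1 of 3, CT45A 2 of 5, MAGEA 3 of 8 and the PRAME family 5 of 22. All 8 MAGEB, all 3 MAGEC and all 5 PAGE genes passed, as did all 7 TEX and all 6 TDRD genes. The best known antigens were among the losses: CTAG1A and CTAG1B, which encode NY-ESO-1, had 0 input reads, MAGEA3 had 1 and SSX2, a partner in the SS18-SSX fusions of synovial sarcoma, had 0. Over the 66 untested genes together, set 2 held 33 H3K9me3 against 26 input reads in migrated cells and 42 against 35 in non-migrated cells.

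**Figure D1:**
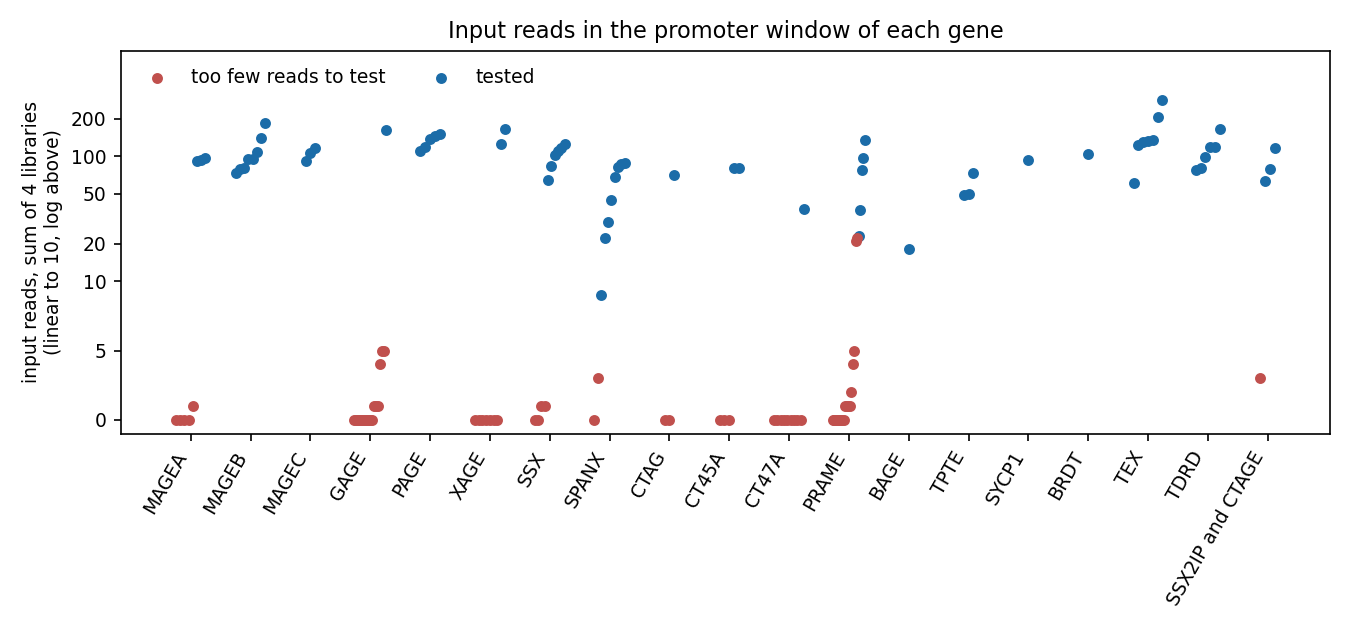
Input reads (sum of the 4 input libraries, linear axis up to 10 and logarithmic above) in the promoter window of each of the 133 genes, by family, with tested genes in blue and untested genes in red. The untested GAGE, XAGE and CT47A genes lie at 0 to 5 reads, while every MAGEB, MAGEC and PAGE gene has at least 74.

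Copies of the promoters were counted next. RefSeq (GRCh38.p14) gave a promoter of 300 bases, from 250 before to 50 after the first start listed, for 88 of the 133 genes, and each was compared with the promoters of all 27305 genes in that table. Of the 21 matched genes without an input read, 12 had another promoter within 15 differences (95% identity) and 9 an identical one, while 2 (XAGE2 and PRAMEF18) had none within 90 differences. Of the 52 with at least 20 input reads, 5 had one within 15 differences, 0 had an identical one, and 34 had none within 90 differences. SPANXN1, at 14 differences from SPANXN3, kept 87 input reads. The sources used here do not give how reads that match several copies were placed, and the part of this in the missing reads was not tested. GAGE10, the tested GAGE gene, was at 34 differences from its nearest other promoter. GAGE12B (32 differences from its nearest), MAGEA2 (32) and SSX2B (35) had 0 input reads. These distances are for 300 bases of GRCh38.p14, while the reads are those of hg19 windows, mostly of 2100 bases. Whether both cover the same place was not checked, and MAGEA2 and XAGE2 had opposite strands in them. The GAGE10 promoter differed from that of GAGE12F by 34 bases. The GAGE12F promoter is shared, letter for letter, by 7 GAGE genes (GAGE12C, GAGE12D, GAGE12E, GAGE12F, GAGE12H, GAGE12J and GAGE2A). Both promoters are shown 5' to 3' on the plus strand, GAGE10 at chrX:49303396-49303695 and GAGE12F at chrX:49560592-49560891 (RefSeq, GRCh38.p14), with the bases that differ in their alignment in capitals, because they are what would tell a GAGE10 read from a GAGE12F read.
GAGE10: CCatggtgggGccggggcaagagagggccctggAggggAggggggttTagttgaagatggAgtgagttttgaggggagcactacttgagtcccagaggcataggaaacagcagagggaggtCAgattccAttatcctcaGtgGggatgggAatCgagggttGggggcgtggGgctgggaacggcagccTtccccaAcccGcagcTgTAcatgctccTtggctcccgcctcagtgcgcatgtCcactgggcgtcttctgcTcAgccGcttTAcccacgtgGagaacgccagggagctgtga
GAGE12F: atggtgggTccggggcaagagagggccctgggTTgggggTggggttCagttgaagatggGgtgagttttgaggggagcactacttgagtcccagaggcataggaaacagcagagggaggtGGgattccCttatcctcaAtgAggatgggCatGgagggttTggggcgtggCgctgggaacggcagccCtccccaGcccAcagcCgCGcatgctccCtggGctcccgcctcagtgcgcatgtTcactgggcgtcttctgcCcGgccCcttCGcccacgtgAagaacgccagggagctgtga
The GAGE10 window (hg19, chrX:49158148-49160248) held 6 and 67 H3K9me3 reads against 30 and 47 input reads in migrated cells of sets 1 and 2, and 12 and 66 against 13 and 72 in non-migrated cells. GAGE12F had 0 reads in every library, and GAGE12J had 12 H3K9me3 and 5 input reads in all. Values of near-identical copies are uncertain. Of the 51 tested members with a RefSeq promoter, 5 had another promoter within 15 differences.

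For the 67 tested genes, H3K9me3 over input was averaged over both fractions and given as log2, relative to the centre set by trimmed-mean (TMM) scaling. The median of all genes lay at -0.21 on this scale. H3K9me3 was past the threshold above input at 30 of the 67 and below it at 2 (limma, Benjamini-Hochberg adjusted p under 0.05 over all 36440 windows tested), while 14% of all 23165 genes were above and 28.5% below. The median of the 67 was log2 0.95. Scaling set these levels: under the constants in the deposited values the median of all genes was -1.17 and that of the 67 was -0.01, so that 1 gene (SPANXC) was called above input and 6 below. The distance between both medians, 1.16 on the log2 scale, was 1.16 under the deposited constants as well. Single libraries moved the count: 12 genes were above input when the migrated input of set 1 was left out, and 48 when the migrated H3K9me3 library of set 1 was. SPANXC and BAGE4 had 9 and 18 input reads and passed the filter through their H3K9me3 reads, so they had to lie high. SPANXN3, SPANXD and PRAMEF4 (45, 22 and 23 input reads) also passed through H3K9me3 reads alone, which favours high values there. With the filter set on input reads alone (at least 20 over the 4 inputs), 67 genes were again tested and 30 were above input. PRAMEF1 and PRAMEF7 then stood in place of SPANXC and BAGE4. In bulk chromatin, a mark on fewer cells and less mark per cell cannot be told apart.

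On chromosome X, 26 of 42 tested genes (61.9%) were above input and 0 below, with a median of log2 1.21. On autosomes, 4 of 25 were above (BAGE4, CTAGE1, PRAMEF12 and TEX101) and 2 below (TDRD3 and TEX19), with a median of 0.44, while 13.3% of other autosomal genes were above and 29.4% below. Other genes on chromosome X were high too, with 244 of 824 (29.6%) above input and a median of 0.53, and other autosomal genes lay at a median of -0.26. With 0.5 read added, log2 H3K9me3 over input was above 0 in both sets of both fractions at 29 of the 42 members on chromosome X. The same held for 365 of 824 other X-linked genes and 5251 of all 23165 genes. SPANXC was counted with 0 H3K9me3 reads against 1 input read in migrated cells of set 1, where the added 0.5 read gave the sign. By family, the medians were 1.37 for MAGEC, 1.34 for SSX, 1.33 for PAGE, 1.26 for MAGEB, 1.18 for MAGEA, 1.18 for SPANX and 1.08 for XAGE, all of which lie on chromosome X. They were 0.67 for the PRAME family, 0.67 for TPTE, 0.49 for TEX, 0.47 for CT45A and 0.13 for TDRD. Of these, CT45A is X-linked too, as are CTAG, GAGE and CT47A, which had 1 tested gene each (0.83, 0.75 and 0.20). Under the deposited constants the medians of the 7 families in the first group stayed above 0 (0.13 to 0.49). Those of the PRAME family, TPTE, TEX, CT45A and TDRD fell below 0 (-0.19 to -0.83). So did the X-linked CTAG, GAGE and CT47A (-0.12, -0.155 and -0.80).

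**Figure D2:**
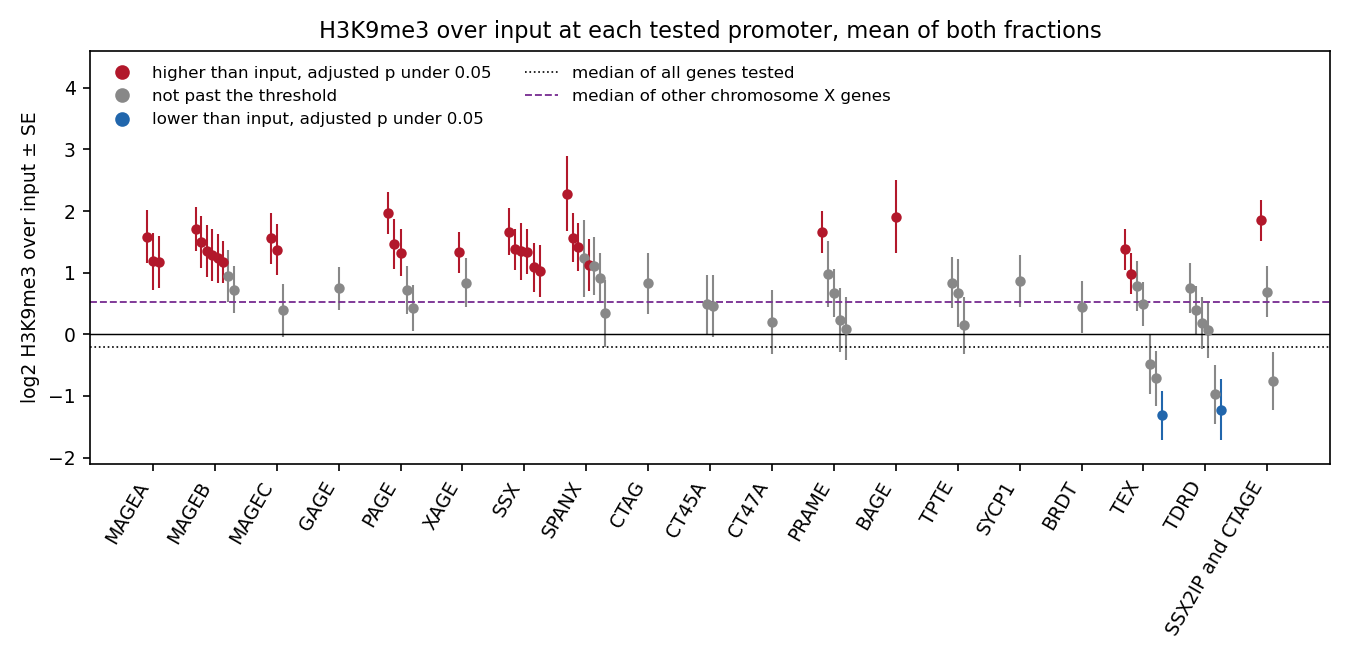
Fitted log2 H3K9me3 over input (mean of both fractions, TMM scaled, n = 2 sets) with its SE for each of the 67 tested genes, by family, in red above and blue below input at an adjusted p under 0.05 (limma). All 3 MAGEA and all 6 SSX genes are past the threshold, and the only genes past it below input are TEX19 and TDRD3.

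The MAGE families share a MAGE homology domain through which they bind RING-type ubiquitin ligases, and the A, B and C branches on chromosome X are the germline-restricted ones. MAGEA1, the founding tumour antigen recognised by T cells (chrX:152486015-152488115, hg19 as are all windows below), had 6 and 43 H3K9me3 reads against 11 and 39 input reads in migrated cells of sets 1 and 2, and 5 and 57 against 6 and 38 in non-migrated cells. Its H3K9me3 was 2.25-fold input (log2 1.17 ± 0.42 SE, adjusted p = 0.0243 by limma). MAGEA10 (chrX:151305355-151307455) held 4 and 89 reads against 10 and 36 in migrated cells, and 7 and 67 against 5 and 41 in non-migrated cells, which gave log2 1.58 ± 0.43 (adjusted p = 0.00328 by limma). Its H3K9me3 share exceeded its input share in every set and fraction. A second MAGEA10 window on the other strand lay at 0.82 and did not pass (adjusted p = 0.155). MAGEA11, a coregulator of the androgen receptor, passed narrowly (log2 1.18, adjusted p = 0.0359), with 1 H3K9me3 read against 17 input reads in migrated cells of set 1 and 75 against 49 in set 2.

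MAGEB genes sit in a stretch of the short arm of chromosome X, and 6 of the 8 were above input. MAGEB10 (chrX:27824107-27826207) was the highest of them, with 9 and 53 H3K9me3 reads against 21 and 26 input reads in migrated cells and 14 and 59 against 9 and 23 in non-migrated cells. Its log2 was 1.71 ± 0.35 (3.27-fold, adjusted p = 0.000223 by limma), and the 4 values by set and fraction lay between 1.55 and 1.82. MAGEB4, with the most input reads of the family (184), stood at 1.17 ± 0.33 (adjusted p = 0.00475). MAGEB5 (chrX:26233419-26235519), the lowest, had 4 and 96 reads against 24 and 47 in migrated cells and 5 and 85 against 14 and 54 in non-migrated cells. Its log2 of 0.72 ± 0.38 did not pass (adjusted p = 0.124), and its set 1 values, 0.28 and -0.26, lay below those of set 2, 1.78 and 1.13. The promoters of the highest and the lowest MAGEB gene are shown (RefSeq, GRCh38.p14, both on the plus strand, MAGEB10 at chrX:27807740-27808039 and MAGEB5 at chrX:26215919-26216218), with CpG dinucleotides, the sites of DNA methylation, in capitals. MAGEB10 holds 14 and MAGEB5 holds 4.
MAGEB10: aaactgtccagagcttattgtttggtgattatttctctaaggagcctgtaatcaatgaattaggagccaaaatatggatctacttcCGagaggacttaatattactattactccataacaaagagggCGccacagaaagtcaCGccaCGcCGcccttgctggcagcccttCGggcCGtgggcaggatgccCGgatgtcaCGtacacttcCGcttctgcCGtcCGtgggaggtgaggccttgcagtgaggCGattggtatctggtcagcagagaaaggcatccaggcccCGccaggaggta
MAGEB5: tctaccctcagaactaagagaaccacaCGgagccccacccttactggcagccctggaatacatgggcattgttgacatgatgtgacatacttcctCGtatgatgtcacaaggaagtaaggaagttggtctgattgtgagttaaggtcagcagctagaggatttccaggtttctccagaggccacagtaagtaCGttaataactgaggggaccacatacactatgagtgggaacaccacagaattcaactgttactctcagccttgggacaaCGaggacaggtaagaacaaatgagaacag

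MAGEC2, a partner of the corepressor TRIM28, and MAGEC1 (CT7) were both above input, and MAGEC3 was not. MAGEC2 (chrX:141292976-141295076) held 5 and 53 H3K9me3 reads against 7 and 40 input reads in migrated cells, and 12 and 55 against 9 and 35 in non-migrated cells (log2 1.56 ± 0.41, adjusted p = 0.00268 by limma). MAGEC1 had a log2 of 1.37 ± 0.41 (adjusted p = 0.00726). MAGEC3 had 1 and 47 reads against 17 and 36 in migrated cells and 6 and 50 against 12 and 41 in non-migrated cells, which gave log2 0.39 ± 0.43 (adjusted p = 0.481).

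The PAGE genes are relatives of GAGE, and PAGE1 had the highest H3K9me3 of all tested members with at least 20 input reads. Its window (chrX:49460496-49462596) held 11 and 130 H3K9me3 reads against 16 and 58 input reads in migrated cells of sets 1 and 2, and 18 and 108 against 8 and 56 in non-migrated cells. The 4 values by set and fraction, 2.21 and 1.92 in migrated and 2.26 and 1.42 in non-migrated cells, all lay far above 0, and the fit gave log2 1.96 ± 0.34 (3.90-fold, adjusted p = 2.7e-05 by limma). PAGE2B and PAGE5 passed as well (log2 1.46 and 1.33, adjusted p = 0.004 and 0.00476), and a second PAGE2B window gave 1.60. PAGE4, a disordered protein of prostate and placenta, stood at 0.72 ± 0.39 (adjusted p = 0.141). PAGE3 (chrX:55291179-55293279) had 3 and 75 reads against 29 and 47 in migrated cells and 8 and 55 against 16 and 58 in non-migrated cells, and its log2 of 0.43 ± 0.37 did not pass (adjusted p = 0.366). The promoters of PAGE1 (chrX:49695935-49696234) and PAGE3 (chrX:55264867-55265166), the highest and the lowest of the family, are shown on the minus strand (RefSeq, GRCh38.p14), with CpG in capitals, 13 in PAGE1 and 5 in PAGE3.
PAGE1: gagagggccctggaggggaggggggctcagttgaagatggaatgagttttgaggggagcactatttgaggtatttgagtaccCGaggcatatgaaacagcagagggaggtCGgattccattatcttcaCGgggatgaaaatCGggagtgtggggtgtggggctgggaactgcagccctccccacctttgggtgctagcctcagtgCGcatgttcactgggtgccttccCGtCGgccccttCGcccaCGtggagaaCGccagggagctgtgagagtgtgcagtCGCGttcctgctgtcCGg
PAGE3: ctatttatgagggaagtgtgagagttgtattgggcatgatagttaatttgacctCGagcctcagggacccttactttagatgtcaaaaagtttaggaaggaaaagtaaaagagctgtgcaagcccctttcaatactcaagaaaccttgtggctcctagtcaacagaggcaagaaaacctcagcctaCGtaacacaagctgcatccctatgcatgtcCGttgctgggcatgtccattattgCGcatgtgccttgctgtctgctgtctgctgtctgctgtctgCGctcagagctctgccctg

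SSX proteins carry a KRAB-like repression domain, and all 6 tested SSX genes were above input, from log2 1.03 to 1.67. SSX6 (chrX:47965365-47967465) held 6 and 66 H3K9me3 reads against 18 and 43 input reads in migrated cells and 16 and 59 against 4 and 37 in non-migrated cells (log2 1.67 ± 0.39, adjusted p = 0.00076 by limma). SSX5 had 7 and 70 against 22 and 50 in migrated cells and 15 and 85 against 11 and 42 in non-migrated cells, with the 4 values between 1.14 and 1.56 (fit 1.38 ± 0.34, adjusted p = 0.00134). SSX9 stood at 1.34 (adjusted p = 0.0034). SSX1, another fusion partner in synovial sarcoma, was the lowest, with 2 and 51 reads against 16 and 33 in migrated cells and 7 and 54 against 7 and 27 in non-migrated cells. Its log2 of 1.03 ± 0.42 (adjusted p = 0.0468) lost its call in 8 of 17 alternative analyses, the most of the 30 members above input. SSX2, SSX2B, SSX4 and SSX4B had 0 or 1 input read each and gave no value.

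SPANX proteins are found in the sperm nucleus. Their tested windows were thinly covered, with a median of 56.5 input reads against 95 over the tested members, and 4 of 8 were above input. SPANXN1 (chrX:144326348-144328448) held 7 and 75 H3K9me3 reads against 19 and 29 input reads in migrated cells and 8 and 73 against 7 and 32 in non-migrated cells, a log2 of 1.57 ± 0.39 (adjusted p = 0.00166 by limma). SPANXA2-OT1, a transcript named for its overlap with SPANXA2, stood at 1.42 ± 0.39 (adjusted p = 0.00365). SPANXC had the highest fitted value of the 67 (2.28 ± 0.61), which rested on 30 H3K9me3 and 9 input reads in all, and its promoter differs from that of SPANXA1 by 5 bases. SPANXN5 (30 input reads) stood at 0.34 ± 0.54, and its values in migrated cells were 1.83 in set 1 and -0.16 in set 2. XAGE5 had 8 and 104 H3K9me3 reads against 28 and 73 input reads in migrated cells and 13 and 148 against 14 and 51 in non-migrated cells (log2 1.33 ± 0.33, adjusted p = 0.00142). XAGE3 stood at 0.84 (adjusted p = 0.0908).

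The other tested antigen genes on chromosome X were not past the threshold in the mean of both fractions. CTAG2, the LAGE-1 antigen, held 1 and 60 H3K9me3 reads against 6 and 23 input reads in migrated cells and 2 and 59 against 9 and 33 in non-migrated cells (log2 0.83 ± 0.50, adjusted p = 0.178 by limma). CT45A1 and CT45A6 stood at 0.48 and 0.46, and CT47A1, with 38 input reads, at 0.20 ± 0.52. GAGE10 stood at 0.75 ± 0.35 (adjusted p = 0.0804). Within migrated cells CTAG2 and GAGE10 were above input (log2 1.33 and 1.04, adjusted p = 0.0218 and 0.0168 by limma). CT45A1, CT45A6 and CT47A1 were not, and none of these genes was in non-migrated cells.

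Among autosomal antigen genes the picture was mixed. PRAMEF12 on chromosome 1 (12832984-12835084) held 8 and 52 H3K9me3 reads against 18 and 37 input reads in migrated cells and 16 and 76 against 7 and 34 in non-migrated cells (log2 1.66 ± 0.35, adjusted p = 0.000244 by limma). PRAME itself, a repressor of retinoic acid receptor signalling on chromosome 22, stood at 0.67 ± 0.39 (adjusted p = 0.168) in its minus-strand window, the strand RefSeq gives. Its plus-strand window, which overlaps it in part, was above input (1.23, adjusted p = 0.015). PRAMEF2, the lowest of the tested family, stood at 0.09. BAGE4, in a pericentromeric stretch of chromosome 21, had 0 and 21 reads against 2 and 10 in migrated cells and 5 and 24 against 2 and 4 in non-migrated cells, a log2 of 1.91 ± 0.59 (adjusted p = 0.00936). TPTE, which encodes a testis membrane protein, and its relatives TPTE2 and TPTE2P6 stood at 0.84, 0.67 and 0.15, and none passed (adjusted p from 0.102 to 0.822).

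The TEX and TDRD genes, some of them of meiosis or of the piRNA pathway, were mixed. Of 7 TEX genes 2 were above and 1 below input, and of 6 TDRD genes 0 were above and 1 (TDRD3) below. Of all genes, 14% were above and 28.5% below. These counts include TEX10, TDRD3 and TDRD7, which were matched by spelling. TEX11, an X-linked gene needed for meiotic recombination in mice (chrX:70128481-70130581), held 11 and 70 H3K9me3 reads against 27 and 44 input reads in migrated cells and 14 and 88 against 11 and 47 in non-migrated cells. Its 4 values lay between 1.37 and 1.47, and the fit gave 1.38 ± 0.33 (adjusted p = 0.000948 by limma). A second TEX11 window stood at 0.16 (adjusted p = 0.782). TEX13B, also on chromosome X, stood at 0.49 (adjusted p = 0.275). TEX101, a surface glycoprotein of germ cells on chromosome 19, passed at 0.98 ± 0.33 (adjusted p = 0.0154). SYCP1, the transverse filament of the synaptonemal complex, stood at 0.87 ± 0.43 (adjusted p = 0.0987). BRDT, a bromodomain reader of acetylated histones in spermatids, stood at 0.44, and its window overlaps one of AC114486.1 on the other strand.

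TEX19, which represses transposons in the mouse germline, was below input. Its window on chromosome 17 (80315123-80317223) was the best covered of all 67, with 280 input reads, and held 1 and 29 H3K9me3 reads against 36 and 102 input reads in migrated cells and 4 and 36 against 22 and 120 in non-migrated cells. All 4 values were below -1, and the fit gave log2 -1.32 ± 0.40 (0.402-fold, adjusted p = 0.0076). TEX14, a component of germ cell bridges, stood at -0.71 ± 0.45, and 5 further TEX14 windows did not pass either. TEX10, a broadly used gene matched by spelling, stood at -0.49 in the window counted, while its plus-strand window was below input (-1.99, adjusted p = 0.000614). The TDRD proteins bind methylated arginine of PIWI proteins through Tudor domains. TDRD5 and TDRD1, both of the piRNA pathway, stood at 0.40 and 0.07 (adjusted p = 0.436 and 0.912), and TEX15, a germline gene, at 0.78 (adjusted p = 0.117). TDRD12 stood at 0.75 ± 0.41 and TDRD9, a helicase of the piRNA pathway, at -0.97 ± 0.48 (adjusted p = 0.137 and 0.0969). A second TDRD9 window on the other strand stood at -0.02 (adjusted p = 0.975 by limma). TDRD3, a widely used gene of the TOP3B complex that the pattern matches by name, was below input (chromosome 13, 60968591-60970691), with 0 and 5 reads against 10 and 33 in migrated cells and 2 and 12 against 10 and 25 in non-migrated cells. Its log2 was -1.22 ± 0.50 (adjusted p = 0.0453). A second TDRD3 window on the same strand stood at -0.44 and did not pass (adjusted p = 0.475 by limma). TEX19 was lower still but had no RefSeq promoter here. The TDRD3 promoter (chr13:60396207-60396506, plus strand, RefSeq, GRCh38.p14) is therefore shown, as that of the lowest tested member with one. Its 30 CpG are in capitals.
TDRD3: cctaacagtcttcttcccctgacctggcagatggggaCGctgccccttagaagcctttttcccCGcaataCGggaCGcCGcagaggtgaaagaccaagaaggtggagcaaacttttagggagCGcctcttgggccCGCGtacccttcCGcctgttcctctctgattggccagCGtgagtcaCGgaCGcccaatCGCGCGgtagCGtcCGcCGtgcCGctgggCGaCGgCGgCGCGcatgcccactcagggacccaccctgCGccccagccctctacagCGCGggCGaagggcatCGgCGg

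Of the other genes matched by spelling, CTAGE1, an antigen gene of cutaneous T-cell lymphoma on chromosome 18, was among the highest, with 9 and 78 H3K9me3 reads against 20 and 40 input reads in migrated cells and 22 and 106 against 8 and 48 in non-migrated cells (log2 1.85 ± 0.33, adjusted p = 3.54e-05 by limma). CTAGE5, which acts in collagen export, and SSX2IP, a centrosomal protein, stood at 0.69 and -0.75 and did not pass. Without all 7 such genes, 29 of 61 tested genes were above and 1 (TEX19) below input. The gene above input that this count leaves out is CTAGE1.

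**Figure D3:**
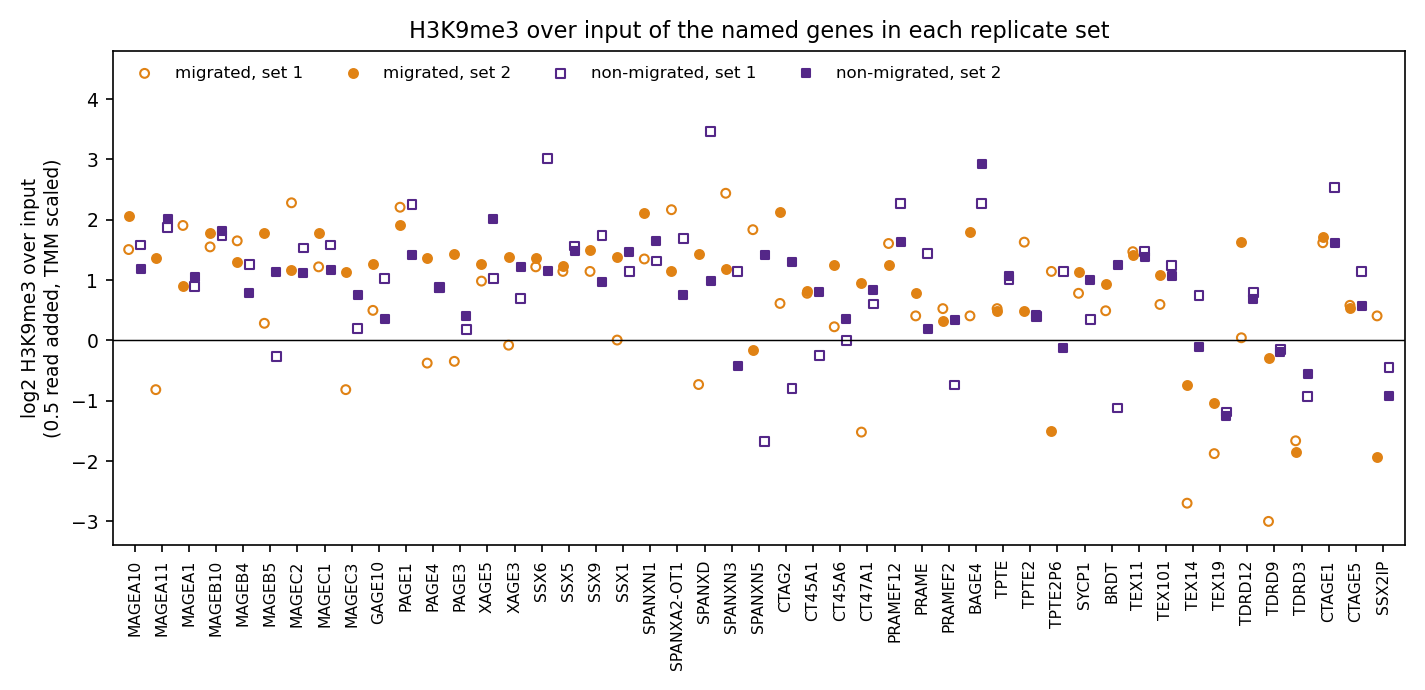
log2 H3K9me3 over input of the named genes (0.5 read added, TMM scaled) in each set and fraction, with migrated cells as orange circles and non-migrated cells as purple squares, open symbols for set 1 and filled ones for set 2. PAGE1, MAGEB10 and TEX11 keep 4 values above 1, while open symbols of shallow genes such as SPANXD reach 3.46.

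The second question was whether the mark at these promoters differed between migrated and non-migrated cells. Within migrated cells 33 of the 67 genes were above input and 4 below, against 15.6% and 27.5% of all genes. Within non-migrated cells 10 were above and 0 below, against 4.76% and 14.7% of all genes. The counts above input shared 9 genes. The median SE over all windows was 0.497 in migrated and 0.618 in non-migrated cells, so these counts do not compare the fractions. Leaving out single libraries moved the count above input between 5 (without the migrated input of set 2) and 44 in migrated cells, and between 0 (without the non-migrated input of set 2) and 36 (leaving out migrated H3K9me3 of set 1) in non-migrated cells. The test of the difference, migrated over non-migrated H3K9me3 corrected for input, called 0 of the 67 genes higher and 0 lower, as 0% and 0% of all genes (limma, smallest adjusted p 0.999). At an unadjusted p under 0.05 it held 0 of the 67 and 1283 of all windows (3.52%). A quasi-Poisson model also called 0 windows after adjustment, and 3 of the 67 had an unadjusted p under 0.05 in it. In limma the SE of the log2 difference ran from 0.372 (TEX101) to 1.02 (SPANXN5) over the 67. The lack of calls therefore does not show that the fractions were alike.

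Among members with at least 20 H3K9me3 reads in set 2 over both fractions, those highest and lowest by the difference are described. SPANXN3 (chrX:142605203-142607303) had 4 and 23 H3K9me3 reads against 5 and 17 input reads in migrated cells and 4 and 10 against 4 and 19 in non-migrated cells, a log2 difference of 1.49 ± 0.76 (unadjusted p = 0.0574, adjusted p = 0.999 by limma) and above 0 in both sets (1.60 in set 2). CTAG2 differed by 1.01 ± 0.55, 1.40 and 0.82 in the sets. TEX14 had 0 and 18 reads against 21 and 52 in migrated cells and 6 and 34 against 8 and 51 in non-migrated cells, a difference of -1.26 ± 0.66, which was -3.45 in set 1 and -0.64 in set 2. SPANXD differed by -0.98 ± 0.99, with opposite signs in the sets (-4.19 and 0.44), on 22 input reads. Both SPANXN3 and SPANXD passed the filter through H3K9me3 reads alone. TDRD3, with fewer reads than that limit, differed by -1.19 ± 0.82 (-0.73 and -1.29 in the sets). TEX14 and TEX10 were called lower in migrated cells (adjusted p = 0.0208 and 0.00929 by limma) when the migrated H3K9me3 library of set 2 was left out, BAGE4 also (0.0453), and TEX14 and TEX10 when the non-migrated one of set 2 was left out (0.0348 and 0.018). These were 3 of 64 and 2 of 63 members tested, while 1855 of 35963 and 1384 of 35986 windows were called in the same settings. In both cases 1 fraction rested on set 1 alone, whose migrated H3K9me3 library held 0 reads at all 3 genes.

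Summed over families, the sets went apart. Over all 133 genes the pooled H3K9me3 over input, relative to all windows, was 1.60-fold in migrated and 2.00-fold in non-migrated cells of set 1 (267 and 514 H3K9me3 reads), and 2.32-fold and 1.87-fold in set 2 (3335 and 3485 reads). The ratio of migrated over non-migrated cells was thus 0.799 in set 1 and 1.24 in set 2. In 8 families, GAGE, MAGEA, MAGEB, MAGEC, PAGE, PRAME, SSX and TDRD, the ratio was below 1 in set 1 and above 1 in set 2. MAGEB stood at 1.91-fold in migrated and 2.69-fold in non-migrated cells of set 1, with exact 95% intervals from 1.34 to 2.68 and from 1.92 to 3.79, and at 3.19-fold (2.76 to 3.69) and 2.01-fold (1.75 to 2.31) in set 2. The intervals overlap in set 1 and are apart in set 2; they cover counting error only. CTAG, CT45A, SPANX and SYCP1 were above 1 in both sets (SPANX 1.10 and 1.52), and XAGE, TPTE, TEX and the SSX2IP and CTAGE group below 1 in both (XAGE 0.798 and 0.786). Other genes on chromosome X stood at 0.979 and 1.20, and members on chromosome X at 0.829 and 1.34. The set, its kit and its depth cannot be told apart.

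**Figure D4:**
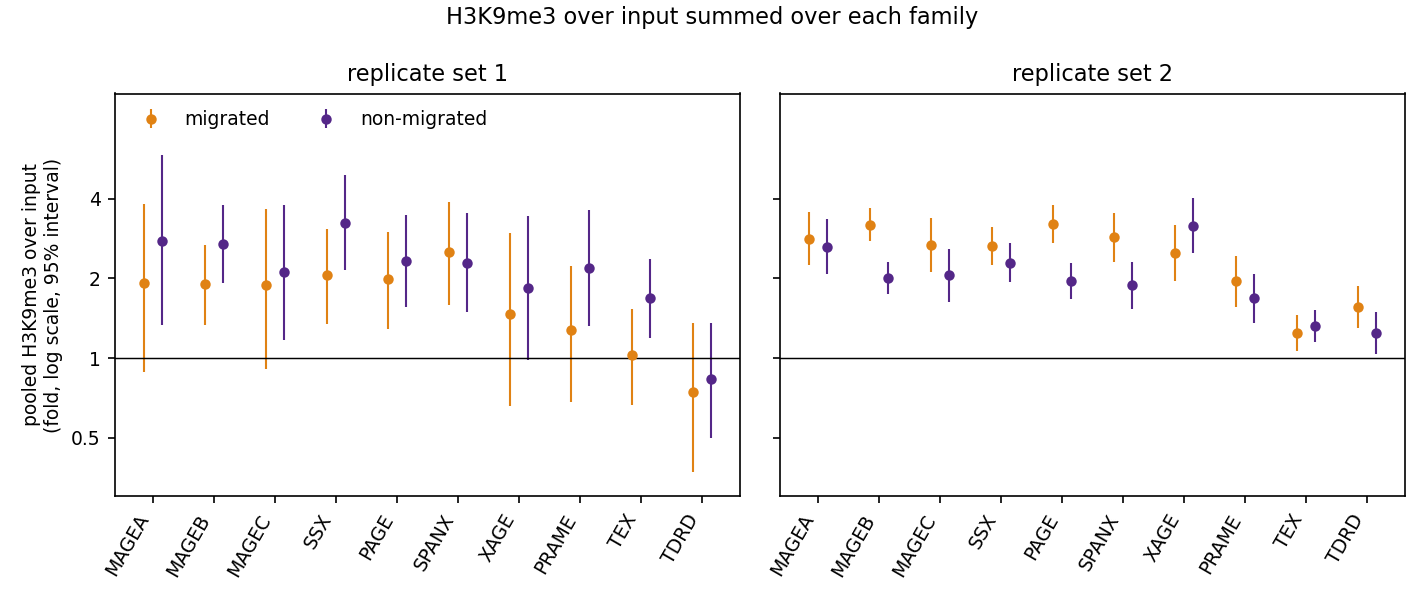
Pooled H3K9me3 over input of 10 families, relative to all windows (fold, log axis), in migrated (orange) and non-migrated (purple) cells of each set, with exact 95% intervals from read counts. MAGEB and PAGE are higher in non-migrated cells of set 1 and higher in migrated cells of set 2.

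Genes with related roles outside the pattern gave a yardstick. The type II MAGE genes, which share the MAGE domain but are used in many tissues, had 9 tested of 11 found. Of these, 4 were above (44.4%) and 1 below input, with a median of 0.73. Beside this, 44.8% of the 67 members and 14% of all genes were above. On chromosome X 2 of 6 were above and 0 below (median 0.51), close to the 29.6% and median of 0.53 of X-linked genes outside the families. On autosomes 2 of 3 were above and 1 below. The type II MAGE genes named here and the germline genes below were named after their values were seen. The high ones were MAGEL2 and NDN, imprinted neighbours on chromosome 15 (2.31 and 1.77), MAGEE2 (1.43) and MAGED2 (1.11), and MAGEF1 on chromosome 3 was low (-2.15). Of 55 other testis and germline genes, 51 were tested, 11 were above and 10 below input, and the median was -0.28. On chromosome X 7 of 14 were above and 1 below (median 0.81), against 29.6% and 5.46% of X-linked genes outside the families. On autosomes 4 of 37 were above and 9 below (median -0.42), against 13.3% and 29.4% of autosomal genes outside the families. These differences were not tested. PASD1, an X-linked antigen, stood at 1.94 (7 and 101 H3K9me3 reads against 14 and 37 input reads in migrated cells). DMC1, the meiotic recombinase on chromosome 22, had 0 and 0 H3K9me3 reads against 16 and 44 input reads in migrated cells and 0 and 1 against 15 and 29 in non-migrated cells, and stood at -3.85 (adjusted p = 1.47e-06 by limma), and SYCP2 of the synaptonemal complex at -2.85.

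Neighbours of the members were counted too. Of 30 other tested genes within 100 kb of a tested X-linked member, 11 were above input (36.7%) and 0 below, with a median of 0.74, beside 29.6% and a median of 0.53 for all other X-linked genes; this difference was not tested. Of 47 such neighbours on autosomes, 3 were above (6.38%) and 9 below, with a median of 0.02. Other autosomal genes stood at 13.3% above and 29.4% below, with a median of -0.26, and this difference was not tested either. Of the autosomal members above input, BAGE4 had 0 tested neighbours and CTAGE1 (1.85) had 1, at 0.36. TEX101 (0.98) had 4 tested neighbours, 0 above and 2 below, with a median of -0.85, while PRAMEF12 (1.66) had 4, of which 1 was above, with a median of 0.83.

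CpG content varied among the promoters and went with the mark on chromosome X but not over all members. The 51 tested members with a RefSeq promoter held 1 to 50 CpG, with a median of 8 on chromosome X and 18 on autosomes, against 14 over all promoters. On chromosome X, 11 of 13 members with at least 10 CpG were above input (median log2 1.37), against 8 of 19 with fewer (median 1.03). The pairs printed above were chosen as the highest and lowest of their families, and single genes departed from this: MAGEB4 with 2 CpG and SPANXN1 with 3 were above input (1.17 and 1.57), and GAGE10 with 11 did not pass. Other X-linked genes showed 97 of 329 (29.5%) with at least 10 CpG above input and 30 of 122 (24.6%) with fewer. Spearman's correlation of CpG and log2 was 0.52 over the 32 members on chromosome X and -0.12 over all 51; the points share libraries and, within families, sequence. Autosomal members with at least 10 CpG had 1 of 14 above and 1 below (TDRD3), and 2 of 5 with fewer were above. Over all genes with at least 10 CpG, 10.31% were above and 43.35% below. With fewer, 13.24% were above and 15.48% below. These differences were not tested. The promoters are those of GRCh38.p14 and the windows those of hg19, and whether each promoter lies within its window was not checked. Strand alone could be compared, and 50 of the 51 had the same strand in both, TPTE being the exception. Over all 88 members with a promoter, 81 had the same strand and 7 the opposite one. Besides TPTE these were the untested MAGEA2, MAGEA3, MAGEA6, XAGE1A, XAGE1B and XAGE2.

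**Figure D5:**
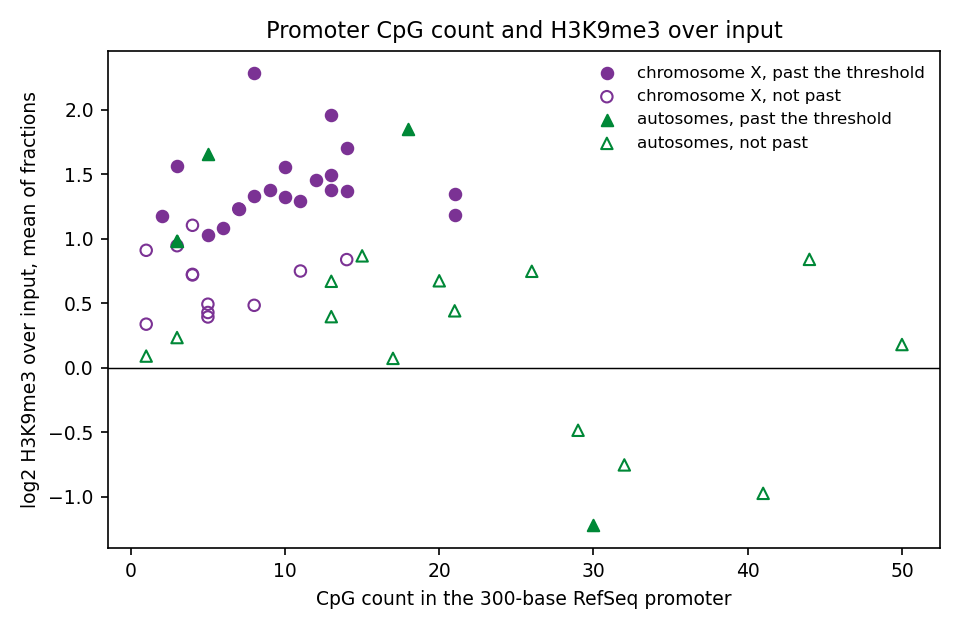
CpG count in the 300-base RefSeq promoter against fitted log2 H3K9me3 over input (mean of both fractions, TMM scaled) for the 51 tested members with a promoter, as circles on chromosome X and triangles on autosomes, filled where past the threshold. On chromosome X 11 of 13 members with at least 10 CpG are filled, and the filled autosomal member below 0 is TDRD3, with 30 CpG.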

How the data were processed

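H3K9me3 ChIP and input of migrated and non-migrated SiHa cells were each measured in 2 sets. The deposited values are log2 values per promoter window (hg19), per the file headers, most windows spanning 2100 bases with 2000 upstream of the start. Bowtie2 2.2.9, SAMtools 1.3 and FastQC 0.11.5 are listed in the submitters' processing notes, and the labels' protocols state that duplicates were removed in set 1; the counting program and the treatment of reads with several matches are not given in the sources used here. Set 1 was made with a TruSeq kit and gel extraction and set 2 with an NEB kit and beads, per the series text.

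In each library all deposited log2 values equalled log2 of a whole read number (within 0.01) plus 1 constant, with log2 of 0.9 for windows without reads, and reads were recovered from this. As the unit is log2 and not counts, limma 3.58.1 (R 4.3.3) with voom precision weights was used on log2 of reads + 0.5 per library size, with TMM scaling (30% and 5% trims). The model held set, ChIP, their product, fraction, and fraction by ChIP, with all 8 libraries, 2 residual degrees of freedom and a prior of 33.1. Windows needed the equivalent of 10 reads in 2 libraries and 15 in all, which left 36440 of 38157, and p-values were adjusted over these by Benjamini-Hochberg with a threshold of 0.05. All tests were two-sided. With set and its product with ChIP in the model, a difference in enrichment between the 2 sets is taken up by the fit. The p-values therefore do not measure how far the 2 sets disagree in enrichment. They rest on how far differences between fractions vary between sets, pooled with the spread of other windows through the prior. Intervals of pooled reads are exact 95% intervals for counting error only.

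The pairing of sets comes from the series text; deviations from group means correlated at 0.147 between the H3K9me3 libraries and 0.469 between the inputs of a set. Genes were named by a rule: all tested members of families with up to 3, otherwise those with the most input reads, the highest and the lowest, those at the ends of the fraction contrast, and all below input; other names were added after their values were seen. Promoters came from RefSeq (GRCh38.p14), compared with edlib 1.3.9.post1. Tables used Python 3.11.15, numpy 2.4.6, scipy 1.17.1, pandas 2.3.3 and matplotlib 3.10.9. The members and lists were chosen with earlier results of these data known. Alternatives covered scaling, filters, the pseudocount, weights, the model, the replicate block and each library left out.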

Additional observations from a re-analysis of the deposited data

How the results depend on the processing

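The main analysis called 30 members above and 2 below input in the mean of fractions, 33 above in migrated and 10 above in non-migrated cells, 0 changed between fractions, with a median of 0.946. The deposited scaling gave 1, 6, 0 and 1, with a median of -0.006013. No filter on low reads gave 54, 1, 51 and 16 (1.254; 92 members tested), a pseudocount of 2 reads 46, 1, 46 and 26, and total reads 1 below and a median of 1.066. The quasi-Poisson model gave 1 below, as did the filter of at least 20 input reads and leaving out members matched by symbol only. Without precision weights 18 were above in non-migrated cells. Without the replicate block the counts were 40, 3, 29 and 18, with 0 changed and a median of 1.076. Set 2 alone, added after seeing the data, gave a median of 1.069. Leaving out 1 library at a time gave 12 to 48 above and 0 to 5 below input, 5 to 44 in migrated and 0 to 36 in non-migrated cells, 0 to 3 changed and medians from 0.7912 to 1.306. The distance of the members' median to that of all genes stayed between 0.974 and 1.25 in every setting run across all windows.

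Of 840 values of 47 named genes under the alternatives, 663 kept direction and side of the threshold, 80 gained and 63 lost a call, and 34 changed sign. With the deposited scaling these were BRDT -0.5457, CT45A1 -0.3844, CT45A6 -0.4758, CT47A1 -0.8023, CTAG2 -0.1201, CTAGE5 -0.2453, GAGE10 -0.155, MAGEB5 -0.2015, MAGEC3 -0.6292, PAGE3 -0.5255, PAGE4 -0.2717, PRAME -0.266, PRAMEF2 -0.8081, SPANXN5 -0.5815, SYCP1 -0.1155, TDRD12 -0.1667, TPTE -0.1936, TPTE2 -0.1791, TPTE2P6 -0.7626 and XAGE3 -0.1402. PRAMEF2 was -0.009515 with median-of-ratios size factors and -0.07781 in the quasi-Poisson model, and TPTE2P6 was -0.3831 without the replicate block. Without the migrated H3K9me3 library of set 1, PRAMEF2 was -0.03853, SPANXN5 -0.1478 and TEX14 0.1291, and without that of set 2 CT47A1 was -0.4912 and MAGEC3 -0.06591. Without the migrated input of set 1, BRDT was -0.01315 and SPANXN5 -0.1214. Without the non-migrated H3K9me3 library of set 1, CT47A1 was -0.3103, and without that of set 2 PRAMEF2 was -0.3018, SPANXN5 -0.4153 and TPTE2P6 -0.0794. Over the 8 libraries left out in turn, the values of these genes ranged from -0.01315 to 1.077 for BRDT, -0.4912 to 1.214 for CT47A1, -0.06591 to 0.9678 for MAGEC3, -0.3018 to 0.6799 for PRAMEF2, -0.4153 to 1.368 for SPANXN5, -1.295 to 0.1291 for TEX14 and -0.0794 to 0.5975 for TPTE2P6. The cause was not tested. The depth of set 1, with a median of 1 H3K9me3 read per window in migrated cells, limits single genes.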
